A study of Mus musculus with 21 samples.

Results

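The 7 genes described here encode the constant part of the kappa light chain (Igkc) and the constant and variable parts of the lambda light chain (Iglc1, Iglc2, Iglc3, Iglv1, Iglv2 and Iglv3). They were picked by gene symbol alone from the 56953 genes counted in each library. RNA sequencing was performed on 3 B cell subsets, called B-1a, B-1b and B-2, that were sorted from the peritoneal cavity of C57BL/6 mice, either WT or with a global knockout of TET2 (TET2-KO). TET2 is a dioxygenase that oxidizes methylated cytosine, and the knockout allele lacks the exons of its catalytic region in all cells. Of the 21 libraries, 8 came from B-1a cells (4 per genotype), 7 from B-1b cells (4 WT, 3 TET2-KO) and 6 from B-2 cells (2 WT, 4 TET2-KO). The gate for both B-1 subsets took cells with low IgD, CD23 and B220, with CD5 on B-1a cells only. The mice were young, with no exact age given in the sources used here, and the labels do not tie libraries to single mice, so that p-values measure the spread between libraries.

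Every B cell receptor pairs a heavy chain with either a kappa or a lambda light chain, and each light chain joins a V, a J and a C segment. In the mouse most B cells use kappa, and the lambda locus is unusually small, with a few V genes split over a pair of clusters. The upstream cluster holds Iglv2 and Iglv3 before Iglj2-Iglc2, and the downstream cluster holds Iglv1 before Iglj3-Iglc3 and Iglj1-Iglc1, so that Iglv2 is mostly joined to Iglc2, and Iglv1 to Iglc1 or Iglc3. B-1 cells are a self-renewing lineage of the body cavities that secretes natural IgM, whereas B-2 cells are the conventional B cells of adaptive responses.

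The lambda genes lie on the minus strand of chromosome 16 (GRCm39), in the order of transcription Iglv2 (chr16:19079151-19079609), Iglv3 (chr16:19059957-19060440), Iglc2 (chr16:19017146-19019101), Iglv1 (chr16:18903767-18904250), Iglc3 (chr16:18883980-18884431) and Iglc1 (chr16:18880368-18880821). Igkc lies on chromosome 6 (chr6:70703419-70703950, plus strand). Because the split of lambda counts depends on telling near copies apart, the genome sequence that separates them is shown, read 5′ to 3′ on the transcribed strand. The V exons of Iglv1 and Iglv2 were 96.9% identical over 351 coding bases, with 11 mismatches. Their last 90 bases, which include the start of the third hypervariable loop, are given first (Iglv1 at chr16:18903767-18903856, Iglv2 at chr16:19079151-19079240), with capitals at the 3 bases where Iglv2 differs from Iglv1.
Iglv1: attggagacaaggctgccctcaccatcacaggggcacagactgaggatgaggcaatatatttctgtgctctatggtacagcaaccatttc
Iglv2: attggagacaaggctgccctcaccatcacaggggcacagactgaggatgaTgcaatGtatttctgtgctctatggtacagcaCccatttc

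The J segments differ far more for their size. Capitals mark the 9 bases of Iglj2 and the 11 bases of Iglj3, of 38, that differ from Iglj1 (chr16:18881975-18882012, chr16:19018948-19018985 and chr16:18885791-18885828 for Iglj1, Iglj2 and Iglj3).
Iglj1: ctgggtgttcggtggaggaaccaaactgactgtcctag
Iglj2: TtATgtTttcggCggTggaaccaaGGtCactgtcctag
Iglj3: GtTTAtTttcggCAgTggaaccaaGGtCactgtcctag

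Iglc2 and Iglc3 were 96.2% identical over their coding bases, with 11 mismatches, whereas Iglc1 was 72.3% identical to Iglc2 and Igkc 51.5%. The first 120 bases of each C exon show this, with capitals where a gene differs from Iglc2 (7 bases in Iglc3 and 28 in Iglc1), at chr16:19017483-19017602 for Iglc2, chr16:18884312-18884431 for Iglc3 and chr16:18880702-18880821 for Iglc1.
Iglc2: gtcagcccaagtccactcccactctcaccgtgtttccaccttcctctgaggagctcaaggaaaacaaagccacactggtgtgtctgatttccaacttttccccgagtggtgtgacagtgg
Iglc3: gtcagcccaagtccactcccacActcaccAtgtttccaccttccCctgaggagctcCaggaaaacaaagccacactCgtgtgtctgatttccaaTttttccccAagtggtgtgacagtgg
Iglc1: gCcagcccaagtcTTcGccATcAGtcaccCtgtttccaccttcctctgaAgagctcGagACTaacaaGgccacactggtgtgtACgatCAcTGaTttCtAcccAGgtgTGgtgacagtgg

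With 150-base windows, as long as 1 read, 100% of the positions in each of the 7 genes were unique on chromosomes 6 and 16. With 50-base windows 77.8% of Iglv1 and 76.0% of Iglv2 positions were unique. How many shortened reads were lost as ambiguous was not tested, and counts of Iglv1 against Iglv2 and of Iglc2 against Iglc3 carry that uncertainty. Iglv3 was listed at 0 in all 21 libraries. Every one of its 381 exonic bases lies within an exon of the antisense gene Gm56600, and the authors counted without strand and left out fragments that overlap more than 1 gene, so a fragment of Iglv3 could not be counted. The same holds for Iglj2, which lies within an exon of Iglc2, and for Iglj3, which lies within an exon of 2010309G21Rik. In Iglc3, 93 of 452 exonic bases (20.6%) overlap 2010309G21Rik. Fragments that touch those 93 bases were left out as well, so Iglc3 was counted over at most the remaining 359 bases. A statement on Iglv3 use can therefore not be drawn from these counts, and 6 members were left to compare.

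Total counts ranged from 9667187 to 24152518 per library. All 8 macrophage markers were detected in each group, with summed levels of 5019 to 25901 CPM (the count scaled to a common library total). Lyz2 made up most of this sum, with 4435 of the 5019 CPM in B-1a TET2-KO library 4 and 23944 of the 25901 CPM in B-1a WT library 4. Erythroid markers summed to 833 and 1452 CPM in the B-1a libraries labelled WT 2 and WT 1 and to at most 268 CPM elsewhere. The gene-level count of Tet2 (7.20 to 25.3 CPM in WT, 13.1 to 46.3 CPM in TET2-KO libraries) includes the exons outside the deletion and is no check of the genotype.

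The 5 libraries labelled WT 1 and WT 2 went against their subset labels. The B-1a library labelled WT 1 and the B-1b library labelled WT 2 had B-2 marker sums of 6197 and 5181 CPM, against 683 to 1099 CPM in the 6 other B-1a libraries not labelled WT 1 or WT 2, and 1271 to 1839 CPM in the corresponding 5 B-1b libraries. The B-2 library labelled WT 1 had 1044 CPM, against 5393 to 6851 CPM in the other 5 B-2 libraries. Cd5, the surface marker that defines B-1a cells, stood at 1.41 CPM in the B-1a library labelled WT 2, against 16.7 to 23.3 CPM in those 6 B-1a libraries, and at 14.0 CPM in the B-1b library labelled WT 1, against 2.08 to 6.03 CPM in those 5 B-1b libraries. The labels were kept, and most of the main comparisons that use these libraries are also given without them.

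Igkc was the most abundant of the members in every group. In B-1a cells the WT libraries 1 to 4 had 20107, 19189, 21111 and 16212 CPM of Igkc, compared to 14684, 13370, 12768 and 12797 CPM in TET2-KO libraries. Every TET2-KO library was thus below every WT library. In B-1b cells the WT libraries had 24292, 20513, 16154 and 13587 CPM, compared to 14592, 16465 and 9851 CPM in TET2-KO libraries, so that the groups overlapped. In B-2 cells the 2 WT libraries (labelled 1 and 4) had 19802 and 17085 CPM, compared to 16051, 17309, 17169 and 13240 CPM in TET2-KO libraries, again with overlap.

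Among the lambda constant genes, Iglc2 had the highest counts, followed by Iglc3 and Iglc1, in all 6 groups. In B-1a cells Iglc2 had 2185, 3751, 4392 and 4373 CPM in the WT libraries and 4036, 14843, 3426 and 4194 CPM in the TET2-KO libraries. The high mean of the TET2-KO group (6625 ± 5489 CPM, mean ± SD, n = 4) came from TET2-KO library 2, and the other 3 lay within the range of WT. In B-1b cells Iglc2 had 3933, 2632, 3918 and 3538 CPM in WT and 4171, 6319 and 3192 CPM in TET2-KO libraries, which overlapped. B-2 TET2-KO libraries had 2444, 3104, 2611 and 2749 CPM, all below every B-1 TET2-KO library, and the 2 B-2 WT libraries had 3841 and 2392 CPM.

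Iglc3 varied least of the lambda genes, by 2.42-fold from the lowest to the highest of all 21 libraries, with group means of 1675 to 2145 CPM. Iglc1 ran from 779 to 2286 CPM. In B-1a cells it had 1252, 1926, 1342 and 1314 CPM in WT and 783, 1352, 779 and 1229 CPM in TET2-KO libraries. TET2-KO library 2 was the one that lay within the WT range, with the other 3 below it. Levels were also taken per kilobase of annotated exon. The B-2 TET2-KO libraries averaged 29967 ± 3548 CPM per kb for Igkc and 4456 ± 458 for Iglc2. Iglc3 averaged 4385 ± 361 and Iglc1 2021 ± 157 there (SD, n = 4). On this scale Iglc2 and Iglc3 differed by less than either SD. Counted over the bases free of other genes, Iglc3 (5521 CPM per kb) stood above Iglc2 (4751 CPM per kb) there. The annotated 612 bases of Iglc2 include a first exon of 154 bases, 116 of them upstream of Iglj2. Iglc1 and Iglc3 have 1 exon block each. The order of Iglc2 and Iglc3 per kilobase thus depends on the length used, and a length without that exon was not tried.

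The lambda V genes moved more between libraries than the constant genes. Iglv1, the V gene of the downstream cluster, had 1015, 1725, 1001 and 927 CPM in B-1a WT libraries and 393, 1146, 317 and 332 CPM in B-1a TET2-KO libraries. Of the TET2-KO libraries, number 2 lay within the WT range and the other 3 lay below every WT library. In B-1b cells Iglv1 had 954, 1138, 1425 and 1362 CPM in WT and 1417, 2302 and 685 CPM in TET2-KO libraries. B-2 TET2-KO libraries held 607, 577, 638 and 474 CPM, and the 2 WT libraries 1168 and 774 CPM.

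Iglv2, the V gene of the upstream cluster, had the widest range of all members, 42.2-fold from 201 CPM in B-2 TET2-KO library 4 to 8496 CPM in B-1a TET2-KO library 2. The other B-1a TET2-KO libraries had 763, 1243 and 570 CPM, and the B-1a WT libraries 491, 1433, 706 and 906 CPM. In B-1b cells the WT libraries had 954, 614, 1274 and 1094 CPM, compared to 1518, 2518 and 1363 CPM in TET2-KO libraries, without overlap. In B-2 cells the TET2-KO libraries had 257, 368, 387 and 201 CPM. The B-2 WT library 4 had 296 CPM, within that range, and the B-2 library labelled WT 1 had 1593 CPM.

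**Figure D1:**
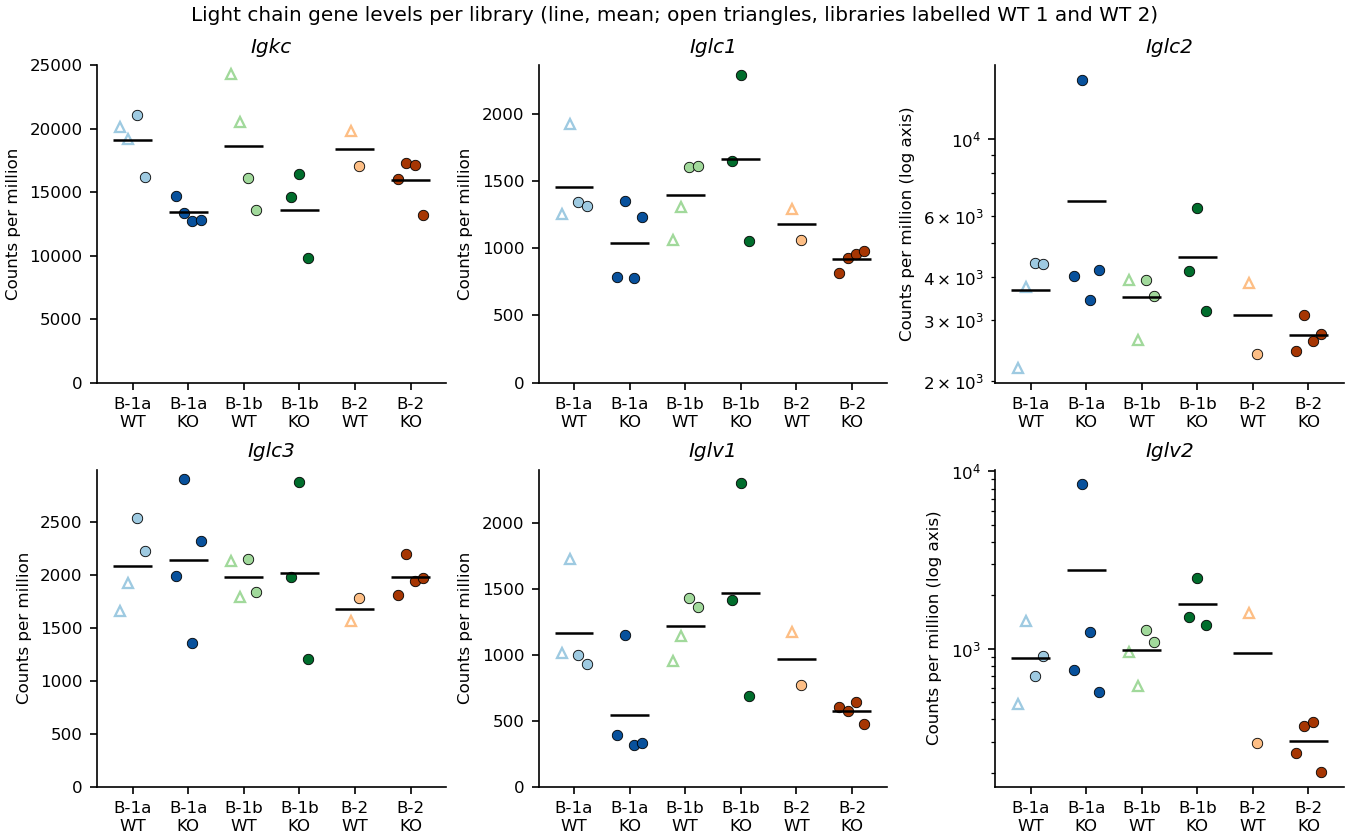
Level of 6 light chain genes in CPM (y axis, logarithmic for Iglc2 and Iglv2) in each library, by sorted subset and genotype (x axis). Points are libraries, lines are group means, and open triangles are the 5 libraries labelled WT 1 and WT 2. B-1a TET2-KO library 2 stands far above all others for Iglc2 (14843) and Iglv2 (8496).

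To ask whether loss of TET2 altered light chain expression in B-1a cells, all 13923 genes that passed the filter on low counts were tested with edgeR, with log2 fold changes on TMM-scaled counts (a scaling that sets most genes equal between libraries). Of the 6 members tested, 0 passed an adjusted p of 0.05, in a comparison where 0.0503% of all genes did. DESeq2 called 0 of the 5 for which it gave a p, having given none for Iglv2. With edgeR 3 members had an unadjusted p under 0.05, as did 1093 of all 13923 genes. The log2 fold change of TET2-KO over WT was -0.62 (SE 0.18, adjusted p = 0.388) for Igkc, -0.60 (SE 0.26, adjusted p = 0.628) for Iglc1 and -1.15 (SE 0.48, adjusted p = 0.622) for Iglv1. It was 0.82 (SE 0.51, adjusted p = 0.649) for Iglc2 and 1.65 (SE 0.86, adjusted p = 0.643) for Iglv2, both of which turned to -0.08 and -0.22 without TET2-KO library 2, while Iglv1 was then at -1.92 (adjusted p = 0.103). Iglc3 stood at -0.04 (SE 0.26). Igkc was the 1 member of 6 whose groups did not overlap in CPM, which 5.13% of all genes tested did. With both doubted WT libraries dropped, Igkc was at -0.55, Iglv1 at -0.82, Iglc2 at 0.60 and Iglv2 at 1.83 (adjusted p = 1.00 for each). Summed macrophage markers ranged from 9407 to 25901 CPM in B-1a WT and from 5019 to 24561 CPM in B-1a TET2-KO libraries, and their part in these values was not tested. In such bulk RNA, fewer cells using a light chain and less of its RNA per cell cannot be told apart.

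In B-1b cells 0 of the 6 members passed by edgeR or by DESeq2, where 0% of 14368 genes passed with edgeR. Of these genes 787 had an unadjusted p under 0.05, among them 1 member. This was Iglv2, at a log2 fold change of 0.74 (SE 0.31, adjusted p = 0.838), which was also the 1 member without overlap in CPM (6.51% of all genes), and it was at 0.61 with WT 1 and WT 2 dropped. Igkc was at -0.64 (SE 0.37, adjusted p = 0.838), and at -0.12 with WT 1 and WT 2 dropped. The other 4 members lay between -0.12 and 0.23.

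In B-2 cells 0 of the 6 members passed by either tool, where 0% of 19786 genes passed with edgeR. Of these genes 1754 had an unadjusted p under 0.05, among them 3 members. All 6 log2 fold changes were below 0, from -2.06 (SE 0.64, adjusted p = 0.531) for Iglv2 and -1.12 (SE 0.34, adjusted p = 0.531) for Iglv1 to -0.11 (SE 0.26) for Iglc3, with a median of -0.66 beside 0.18 for all genes. Without the B-2 library labelled WT 1 the value for Iglv2 was -0.11, that for Iglv1 -0.59 and that for Igkc -0.26. Without WT library 4, which leaves the doubted WT 1, Iglv2 was at -2.84. Each of these fits compares 4 libraries with 1, which is assumed to vary like the others. Neither is a test of B-2 cells by genotype. In CPM, 3 of the 6 members did not overlap between the groups (22.5% of all genes). Iglc3 was one of them, higher in TET2-KO libraries in CPM (1811, 2203, 1943 and 1971 against 1566 and 1785) yet at -0.11 after TMM scaling.

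The difference between the TET2-KO effects of B-1a and B-1b cells was tested as an interaction, where 0% of 15972 genes passed. None of the 6 members passed or had an unadjusted p under 0.05 with edgeR, and DESeq2 called 0 of 5, with no p for Iglv2. The differences ran from -1.32 (SE 0.66) for Iglv1 to 0.90 (SE 1.07) for Iglv2. Without B-1a TET2-KO library 2, Iglv1 was at -2.09 (unadjusted p = 0.000763) and Iglc1 at -0.98 (unadjusted p = 0.0223), both with an adjusted p of 0.999. With a replicate block, which takes same-numbered B-1a and B-1b libraries as pairs, Iglv1 was at -1.14 (unadjusted p = 0.00496) and Iglc1 at -0.73 (unadjusted p = 0.0147), both with an adjusted p of 0.997.

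Shares within a library do not depend on the scaling. They are shares of counts and do not measure the share of cells that use lambda. The lambda share of constant counts, Iglc1 to Iglc3 over these and Igkc, was 20.2, 28.4, 28.2 and 32.8% in the B-1a WT libraries and 31.7, 58.8, 30.3 and 37.7% in the B-1a TET2-KO libraries. The groups overlapped, and TET2-KO library 2 lay far above all others. The means were 27.4 ± 5.24% and 39.6 ± 13.2% (SD, n = 4 each). This difference of 12.2 percentage points did not pass the exact permutation test (two-sided p = 0.0857, adjusted over 8 shares 0.137). The 8 include the share of Iglv3, fixed at 0, so that 7 could be measured. The difference was 5.85 points without TET2-KO library 2 and 9.15 points with WT 1 and WT 2 dropped.
The lambda share of V counts, Iglv1 to Iglv3 over these and the 160 Igkv genes, was 13.6, 25.4, 14.9 and 19.95% in B-1a WT and 13.5, 65.8, 18.3 and 11.9% in B-1a TET2-KO libraries. The 95% Wilson interval of the highest was 65.6 to 66.0%, and like all such intervals it covers counting error only. The groups overlapped (exact permutation p = 0.886), and the difference of 8.90 points turned to -3.91 points without library 2. It was 9.96 points with WT 1 and WT 2 dropped. The 2 shares thus ordered the libraries differently, as shown in the plot of lambda shares.

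In B-1b cells both lambda shares were higher in all 3 TET2-KO libraries than in all 4 WT libraries. The share of constant counts was 22.7, 21.9, 32.2 and 34.0% in WT and 34.8, 41.1 and 35.6% in TET2-KO libraries. The share of V counts was 14.2, 15.4, 25.3 and 26.3% in WT and 29.9, 39.5 and 27.1% in TET2-KO libraries. Both had the smallest p that 3 libraries against 4 can give (two-sided exact permutation p = 0.0571, adjusted 0.0914), so the test could not pass 0.05. The differences of 9.51 and 11.9 points were 4.11 and 6.37 points with WT 1 and WT 2 dropped, which were the lower 2 of the WT libraries in both shares.

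B-2 cells had lambda shares of constant counts of 25.3 and 23.5% in WT and 24.01, 26.5, 24.3 and 30.1% in TET2-KO libraries (exact permutation p = 0.533). Their lambda shares of V counts were 22.6 and 12.1% in WT and 10.6, 10.9, 10.96 and 10.1% in TET2-KO libraries. The value of 22.6% belonged to the library labelled WT 1, whose B-2 marker sum was 1044 CPM. The TET2-KO minus WT differences were 1.83 points for constant and -6.69 points for V counts. Without that library, which leaves 1 WT library, they were 2.74 and -1.43 points. With 2 against 4 libraries the smallest possible p was 0.133. In the B-2 TET2-KO libraries the lambda share was thus 24.01 to 30.1% by constant counts and 10.1 to 10.96% by V counts. Which of these is closer to the share of cells using lambda was not tested.

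**Figure D2:**
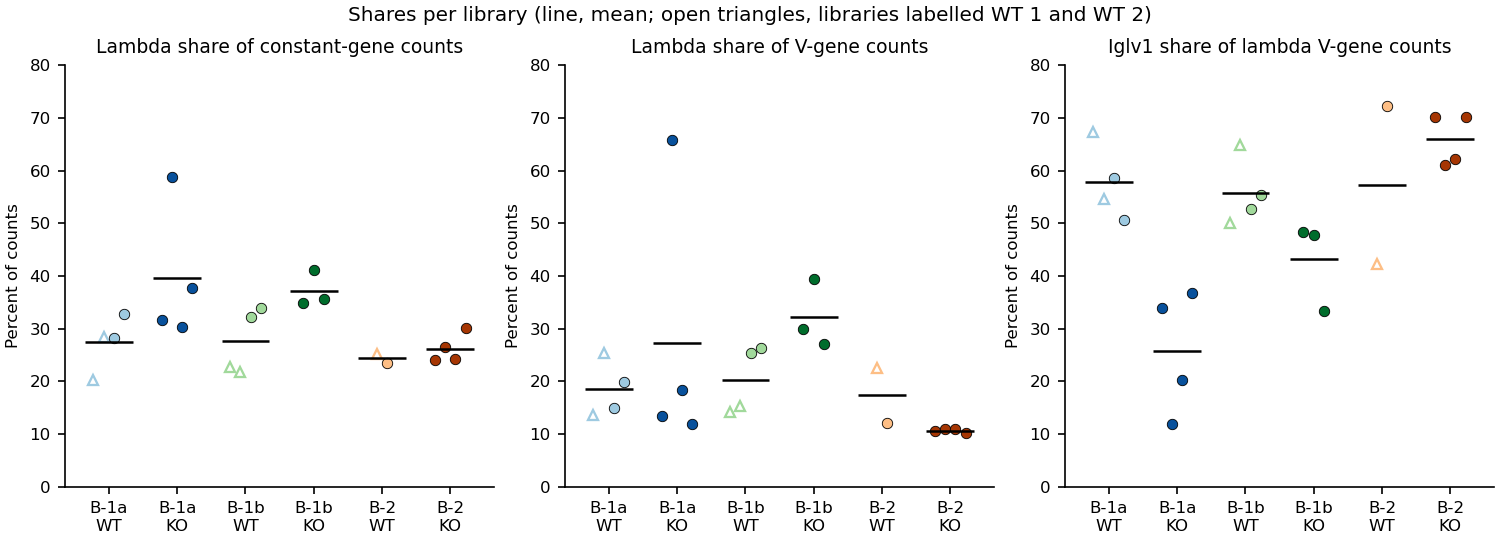
Lambda share of constant-gene counts, lambda share of V-gene counts and Iglv1 share of lambda V-gene counts (y axes, percent) in each library, by subset and genotype (x axis). Lines are group means and open triangles are the 5 libraries labelled WT 1 and WT 2. The 4 B-2 TET2-KO libraries sit between 10.1 and 10.96% for lambda V, and B-1a TET2-KO library 2 at 65.8%.

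Within lambda, every B-1a TET2-KO library had a smaller Iglv1 share and a larger Iglv2 share than any B-1a WT library. Iglv1 took 67.4, 54.6, 58.6 and 50.6% of lambda V counts in WT and 34.0, 11.9, 20.3 and 36.8% in TET2-KO libraries, and Iglv2 the remainder. The difference in means was -32.1 points (57.8 ± 7.18% in WT, 25.7 ± 11.7% in TET2-KO libraries). It had the smallest p that 4 against 4 libraries can give (two-sided exact permutation p = 0.0286) and missed 0.05 after adjustment over the 8 shares (0.0762). It was -27.4 points without TET2-KO library 2 and -28.9 points with WT 1 and WT 2 dropped. Iglc1 followed the same side, with 24.6, 25.3, 16.2 and 16.6% of Iglc1 to Iglc3 counts in WT and 11.5, 7.07, 14.0 and 15.9% in TET2-KO libraries, without overlap (difference -8.57 points, exact permutation p = 0.0286, adjusted 0.0762). Leaving out WT 1 and WT 2, this difference was -4.30 points. Iglc2 took 42.9 to 55.2% in WT and 54.2 to 77.7% in TET2-KO libraries, which overlapped. Iglc3, the other constant gene of the downstream cluster, took 25.3 to 32.6% in WT and 15.2 to 30.0% in TET2-KO libraries, with overlap. Its difference was -4.48 points (exact permutation p = 0.314, adjusted 0.419), and -1.32 points without TET2-KO library 2.

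In B-1b cells Iglv1 took 49.99, 65.0, 52.8 and 55.5% in WT and 48.3, 47.8 and 33.5% in TET2-KO libraries, without overlap (difference -12.6 points, exact permutation p = 0.0571, adjusted 0.0914, and -10.97 points with WT 1 and WT 2 dropped). Iglc3 was also without overlap there, at 26.4 to 31.3% of Iglc1 to Iglc3 counts in WT and 22.1 to 25.4% in TET2-KO libraries, whereas Iglc1 differed by -0.28 points. Whether the TET2-KO effect on these shares differed between B-1a and B-1b cells was tested by permuting genotype within each subset. The Iglv1 effect was 19.4 points lower in B-1a than in B-1b cells (-19.4, exact permutation p = 0.225 before adjustment), so a difference between the subsets was not shown. With WT 1 and WT 2 dropped the value was -17.9 points. The smallest unadjusted p of any share was 0.0927, for Iglc1, whose difference of -8.28 points was -2.47 points with WT 1 and WT 2 dropped. This test takes same-numbered B-1a and B-1b libraries as independent. In B-2 cells the Iglv1 share was 42.3 and 72.3% in WT, which lay on both sides of the 61.1 to 70.2% of TET2-KO libraries.

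**Figure D3:**
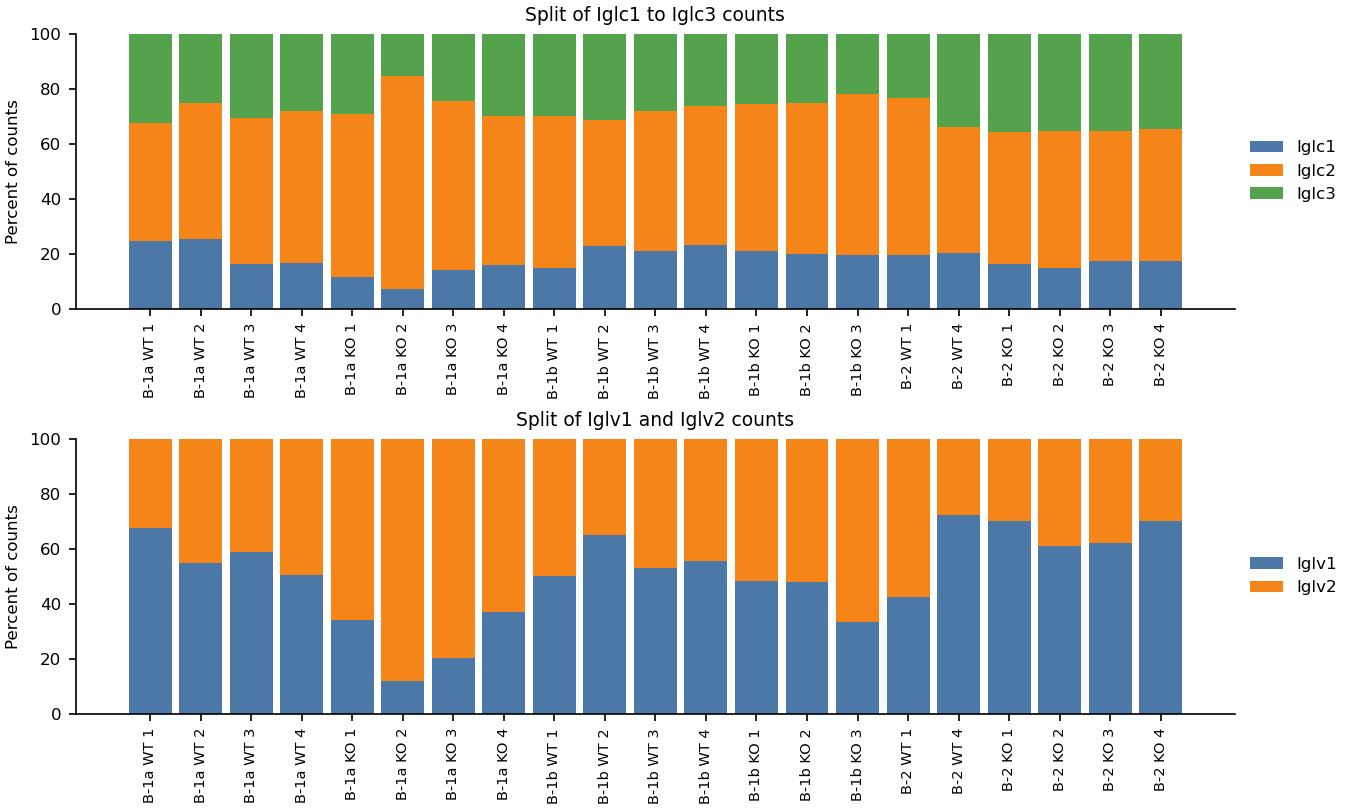
Percent of Iglc1 to Iglc3 counts on each gene (upper panel) and of Iglv1 and Iglv2 counts on each gene (lower panel) in each of the 21 libraries (x axis). Iglv2 takes 88.1% of the lambda V counts in B-1a TET2-KO library 2, and 29.8 to 38.9% in the 4 B-2 TET2-KO libraries.

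The subsets were compared with each other among the 11 TET2-KO libraries, which matched their subset labels. These comparisons share libraries, so each is given on its own. Between B-1a and B-2 cells, 6 of the 7 measurable shares passed the exact permutation test with adjustment over the 8 (each p = 0.0286, adjusted 0.0381), of which Iglv1 and Iglv2 are complements. Each was at the smallest p that 4 against 4 libraries can give. The adjusted value then depends on how many shares reach it together, and shares of the same whole depend on each other. For Iglv1 between B-1a genotypes the same permutation p was adjusted to 0.0762. The lambda share was higher in B-1a cells by 13.4 points for constant and 16.7 points for V counts, and by 7.03 and 3.92 points without B-1a library 2. Iglc2 took 14.8 points more and Iglc3 10.5 points less of the constant counts in B-1a cells (differences 14.8 and -10.5). Iglv2 took 74.3 ± 11.7% of lambda V counts in B-1a and 34.1 ± 4.96% in B-2 cells, a difference of 40.2 points, and 35.6 points without B-1a library 2. With 3 against 4 libraries the smallest p is 0.0571, so none of the 6 could pass after any 1 library was left out, while all 6 kept their direction.

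Between B-1b and B-2 cells all 7 measurable shares did not overlap, each at the smallest p of 0.0571 (exact permutation, adjusted 0.0653). The lambda share of V counts was 27.1 to 39.5% in B-1b and 10.1 to 10.96% in B-2 cells, and the Iglv1 share 33.5 to 48.3% against 61.1 to 70.2%. Between B-1a and B-1b cells, Iglc1 alone did not overlap, with 7.07 to 15.9% in B-1a and 19.3 to 21.1% in B-1b cells (exact permutation p = 0.0571, adjusted 0.457).

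At the gene level 0 of 6 members passed in any of these 3 comparisons with edgeR, where 5.82% (B-1a against B-2), 2.15% (B-1b against B-2) and 0.205% (B-1a against B-1b) of 18555 genes did. DESeq2 gave no p for Iglv2 in these comparisons and called 1 of the other 5 members. This was Iglc1 in B-1b against B-2 cells, where it called 2872 of 44737 genes. The numbers of members with an unadjusted p under 0.05 with edgeR were 2, 3 and 1, beside 4581, 3629 and 1072 of all 18555 genes. Iglv2 had the largest fold changes, 3.54 (SE 0.93, adjusted p = 0.0541) in B-1a and 2.73 (SE 0.93, adjusted p = 0.162) in B-1b over B-2 cells on the log2 scale. Without B-1a TET2-KO library 2, already seen to be far above the others for Iglv2, both passed, at 1.67 (adjusted p = 0.0157) and 2.75 (adjusted p = 0.000964). That library is not part of the B-1b against B-2 contrast, but all 11 TET2-KO libraries share 1 estimate of the spread. Over all fits without 1 library the edgeR adjusted p of Iglv2 ran from 0.0157 to 0.113 and from 0.000964 to 0.342. Iglc2 was at 1.62 (SE 0.48, adjusted p = 0.0675) in B-1a over B-2 cells and Iglc1 at 1.07 (SE 0.31, adjusted p = 0.0892) in B-1b over B-2 cells. Igkc had log2 fold changes of -0.01 (SE 0.26), -0.04 (SE 0.28) and 0.03 (SE 0.28) in the 3 comparisons, each smaller than its standard error. In CPM, 2 of 6 members were without overlap and higher in B-1a than in B-2 cells (18.7% of all genes were without overlap), 4 of 6 were higher in B-1b than in B-2 cells (19.8%), and 0 of 6 differed so between B-1a and B-1b cells (5.78%).

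**Figure D4:**
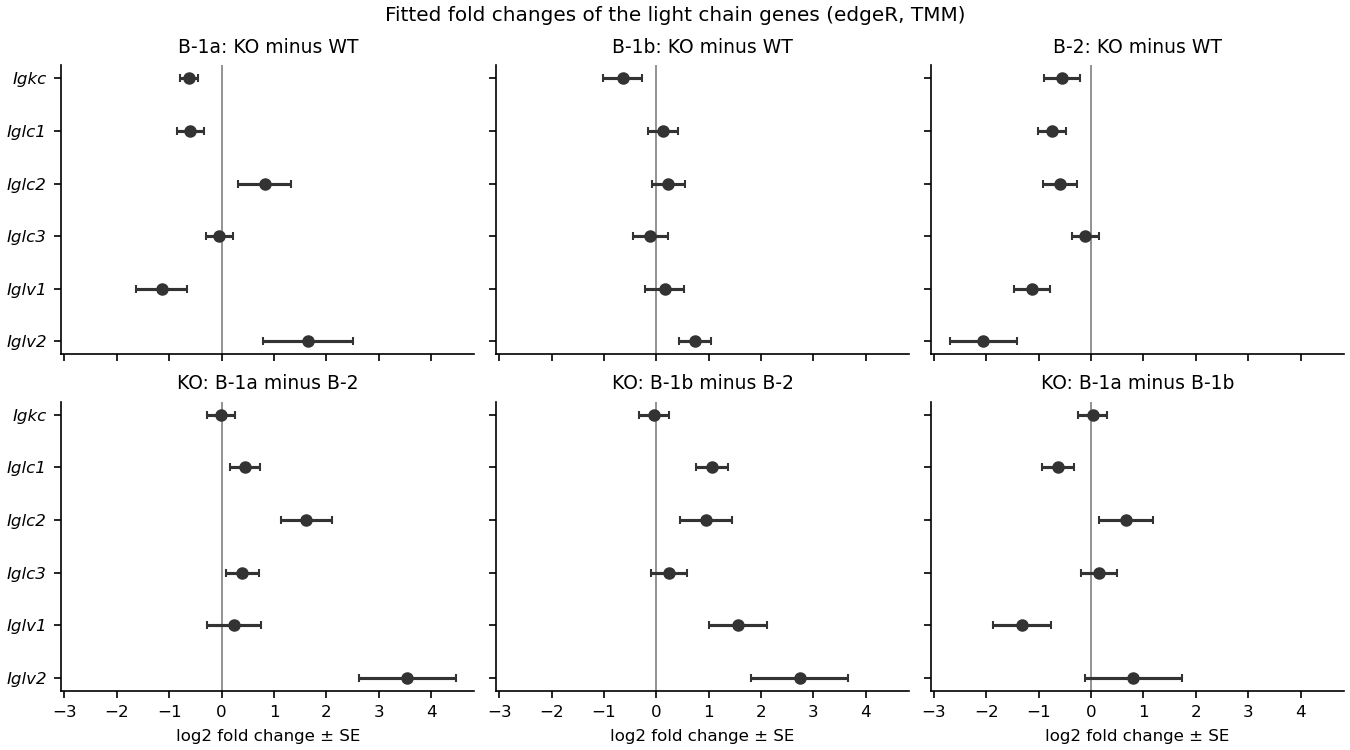
Log2 fold change (x axis, with standard error as bars) of 6 light chain genes (y axis) in 6 comparisons, fitted with edgeR on TMM-scaled counts. Iglv2 is at 3.54 and 2.73 in B-1a and B-1b over B-2 cells among TET2-KO libraries, while Igkc lies between -0.04 and 0.03 in the 3 comparisons of subsets.

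The split of the lambda V genes was set beside the B-2 marker sum of each library. The 7 libraries with a B-2 marker sum of 5181 CPM or more had the 7 highest Iglv1 shares, 61.1 to 72.3%, against 11.9 to 58.6% in the 14 libraries with 1839 CPM or less. They were the 4 B-2 TET2-KO libraries, B-2 WT library 4, the B-1a library labelled WT 1 (67.4%) and the B-1b library labelled WT 2 (65.0%). The B-2 library labelled WT 1 was among the 14, at 42.3%. So were the B-1a library labelled WT 2 (54.6%) and the B-1b library labelled WT 1 (49.99%), which went against their labels by Cd5. The 14 also differed by genotype. Their B-1 WT libraries had 49.99 to 58.6%, against 11.9 to 36.8% in B-1a and 33.5 to 48.3% in B-1b TET2-KO libraries. The division by B-2 marker sum was drawn after the values were seen and was not tested.

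**Figure D5:**
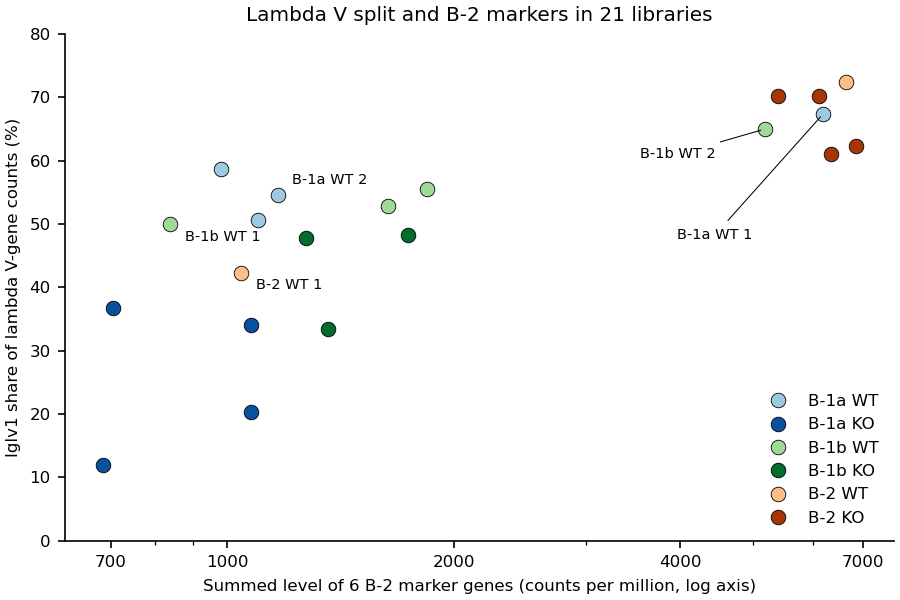
Iglv1 share of lambda V-gene counts (y axis, percent) against the summed level of 6 B-2 marker genes (x axis, CPM, logarithmic) in 21 libraries, coloured by the deposited subset and genotype, with the libraries labelled WT 1 and WT 2 named. All 7 libraries at 5181 or more lie at 61.1% or above, including 1 labelled B-1a and 1 labelled B-1b.

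B-1a TET2-KO library 2 also stood apart in its other V genes. The heavy chain gene Ighv12-3 took 69.3% of its Ighv counts, against 2.47 to 6.98% in the other 3 B-1a TET2-KO libraries, and Igkv5-48 was its leading kappa V gene. Igkv12-89 led in the other 3, with 37.1 to 55.6% of Igkv counts. Igkc in library 2 (13370 CPM) lay within the range of those 3 libraries (12768 to 14684 CPM), while its Igkv counts, 0.375 per Igkc count, were the lowest of all 21 libraries relative to Igkc.

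Counts of V genes per count of the constant genes were steady for kappa and not for lambda. Igkv counts per Igkc count ran from 0.375 to 0.558, a 1.49-fold range over 21 libraries. Iglv1 to Iglv3 counts per Iglc1 to Iglc3 count ran from 0.116 to 0.505, a 4.33-fold range. B-2 TET2-KO libraries were low, at 0.170, 0.152, 0.186 and 0.119, B-1b TET2-KO libraries were at 0.376, 0.420 and 0.376, and B-1a TET2-KO libraries were spread over 0.170, 0.505, 0.281 and 0.116. By cluster, Iglv2 counts per Iglc2 count ranged from 0.0732 to 0.572, and Iglv1 counts per count of Iglc1 and Iglc3 from 0.0935 to 0.448. In the B-1a TET2-KO libraries the latter were 0.141, 0.269, 0.148 and 0.0935, against 0.348, 0.448, 0.258 and 0.261 in B-1a WT libraries. Library 2 lay within the WT values and the other 3 below them. Since V and C counts come from genes of different length, these ratios are read between libraries only. Fragments that overlap a V gene and also a J or C gene were left out. How their part varied between libraries was not tested.

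Of 11 other J and C segments of the light chain loci in the files, 8 were tested and 0 passed in any of the 7 comparisons with edgeR. From 0 to 4 per comparison had an unadjusted p under 0.05, and DESeq2 called 0 to 2. Iglj1 averaged 7.67 ± 3.76 CPM in B-1a TET2-KO and 14.8 ± 2.59 CPM in B-1a WT libraries (log2 fold change -1.02, SE 0.36, adjusted p = 0.577), and Iglc4, the constant gene of the upstream cluster that lies after Iglc2, stayed at group means of 3.64 to 7.49 CPM. Of 160 kappa V genes, 104 were tested in B-1a cells. Of these, 5 passed the adjusted threshold as lower in TET2-KO libraries and 0 as higher (89 and 15 by sign alone), with a median of -2.37 beside 0.02 for all genes, and beside 0.0431% of all genes lower and 0.00718% higher. The lowest was Igkv12-41 (log2 fold change -4.24, SE 0.55, adjusted p = 0.0469). DESeq2 called 49 kappa V genes there, and with edgeR 0 genes of any kind passed once WT 1 and WT 2 were dropped. In B-1b and B-2 cells 0 kappa V genes passed, with medians of -0.82 and -0.14. There 34 and 13 had an unadjusted p under 0.05, and DESeq2 called 10 and 5. Among TET2-KO libraries 46 of 110 tested kappa V genes were lower and 3 higher in B-1a than in B-2 cells (2.57% of all genes lower, 3.26% higher). Between B-1b and B-2 cells 5 were lower and 4 higher (0.631% and 1.52% of all genes), and between B-1a and B-1b cells 16 were lower and 0 higher (0.194% and 0.0108% of all genes).

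Of 4 genes listed around the surrogate light chain (Vpreb1, Vpreb2, Vpreb3 and Igll1), Vpreb3 alone passed the filter. Its level is not read as expression of the surrogate light chain, which stands in for the light chain in precursor B cells. Igll1 did not exceed 1.86 CPM in any library. Among TET2-KO libraries Vpreb3 was lower in B-1a (2.98 ± 1.28 CPM) and B-1b (14.6 ± 6.21 CPM) than in B-2 cells (121 ± 27.4 CPM), with log2 fold changes of -5.01 (SE 0.41, adjusted p = 3.34e-06) and -2.80 (SE 0.41, adjusted p = 0.00143). Of 14 genes of light chain recombination and editing, 11 were tested in B-1 cells and 0 passed between TET2-KO and WT libraries in any subset by edgeR or DESeq2, with 1 or 2 per subset at an unadjusted p under 0.05. Rag1 and Rag2, which cut the V and J segments, were near 0, with at most 3.83 CPM of Rag1 in any library. Between subsets of TET2-KO libraries, Ikzf3, a zinc finger factor of the lymphoid lineage, was higher in B-1a (0.86, SE 0.19, adjusted p = 0.0113) and B-1b (1.00, SE 0.20, adjusted p = 0.0140) than in B-2 cells, and Irf8, a factor of early and germinal centre B cells, was lower in B-1a than in B-2 cells (-1.43, SE 0.22, adjusted p = 0.000752).

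Of the 6 partners of the light chain in the receptor and in secretion, 0 passed between genotypes in any subset with edgeR. An unadjusted p under 0.05 was held by 1 (B-1a), 0 (B-1b) and 2 (B-2), and DESeq2 called 1 in B-1a cells. Among TET2-KO libraries Jchain, the joining chain of polymeric IgM, and Mzb1, an endoplasmic reticulum cochaperone of IgM assembly, were higher in both B-1 subsets than in B-2 cells. Jchain was at 2.25 (SE 0.53, adjusted p = 0.0226) in B-1a and 3.88 (SE 0.58, adjusted p = 0.00188) in B-1b over B-2 cells. Ighd, the constant gene of IgD, was lower in both, at -2.61 (SE 0.21) and -2.26 (SE 0.24), and IgD was used in the sort.

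The genes whose TMM-scaled levels were most alike to Igkc over the 21 libraries, among 8190 genes with a mean of at least 10 CPM, were Lamtor2 (Spearman rho 0.94), Polr1d, Sh3bgrl3, Med21 and Ndufa1 (0.92 to 0.93), none of them an immunoglobulin gene. For the sum of Iglc1 to Iglc3 they were Tmem126a (0.93), Ly96 (0.91), Ssbp3 and Mphosph6 (0.90 each) and Tprkb (0.89). All points of these correlations share the library, its depth and its scaling, and include the 5 libraries that went against their labels.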

How the data were processed

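Per the submitters' notes, the authors used fastp, STAR and the GRCm39 build. Per the file headers, featureCounts 1.6.1 made the count of each gene of GENCODE vM32, without strand and without ambiguous fragments. The deposited values are whole-number counts, 1 file per library, with no normalization. The paper describes amplified full-length cDNA and the labels poly-T selection with random priming. Symbols were taken from GENCODE vM39 (56310 of 56953 identifiers).

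Genes were tested with edgeR 4.0.16 (filterByExpr, TMM, robust quasi-likelihood fits, Benjamini-Hochberg adjustment at 0.05), tested first on simulated data. Subsets were fitted separately for genotype, both B-1 subsets together for the interaction, and the 11 TET2-KO libraries together for subsets. Shares were compared by two-sided exact permutation tests, adjusted over 8 shares. DESeq2 1.42.0, other filters and scalings, division by length, a replicate block and leaving out libraries were the alternatives. Members, lists and tests were chosen with earlier results of these data known. Named were the 7 members and, per list, at most 5 genes with an adjusted p under 0.05. Genome sequence was read from GRCm39 at the files' coordinates. Replicate numbers were not used to pair libraries, except in the block.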

Additional observations from a re-analysis of the deposited data

Results flagged for a closer look

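Of 52 sets of values in groups of 4 libraries, 6 held a library whose gap to the nearest other exceeded Dixon's limit, which chance gives in about 1 of 20. B-1a TET2-KO library 2 was far above the other 3 for Iglc2 (14843 CPM), Iglv1 (1146 CPM), Iglv2 (8496 CPM) and the lambda share of V counts (65.8%). In B-1a WT cells the library labelled WT 2 was far above the other 3 for Iglc1 (1926 CPM) and Iglv1 (1725 CPM), and its Cd5 level of 1.41 CPM was the lowest of the 8 B-1a libraries. The cause was not tested.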

How the results depend on the processing

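Counts of genes that passed depended on the tool and filter. For TET2-KO against WT, DESeq2 gave 186 (B-1a), 60 (B-1b) and 169 (B-2) in place of 7, 0 and 0, and no filter on low counts gave 318, 131 and 167. The interaction gave 1 with DESeq2, 144 without the filter and 1 with the replicate block. Among TET2-KO libraries, DESeq2 gave 3478 (B-1a against B-2), 2872 (B-1b against B-2) and 141 (B-1a against B-1b) in place of 1080, 399 and 38, no filter 1699, 870 and 123, and the replicate block 1638, 667 and 103. The replicate block gave 48 in B-1a cells and dropping WT 1 and WT 2 gave 0. Without 1 library at a time these counts ranged from 0 to 6 (B-1a), 0 to 576 (B-2, the highest without WT 4, where the doubted WT 1 is the 1 WT library left), 608 to 2015, 177 to 768 and 15 to 57. The cause was not tested.

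Members passed only under some settings. Without the filter 2 passed in B-1a cells (Igkc and Iglc1), 1 in B-2 cells (Iglv2), 1 in the interaction (Iglv1) and 1 in B-1b against B-2 cells (Iglc1). DESeq2 called 1 (Iglc1) in the last. The replicate block called 2 in B-1a against B-2 cells, Iglc2 and Iglv2. Without 1 library the number of members was 0 to 2 in B-1a or B-1b against B-2 cells. Same-numbered libraries deviated together with correlations of 0.196 to 0.365 between B-1a and B-1b WT libraries (all 4 pairs over 0.1) and 0.0725 to 0.118 between B-1a and B-1b TET2-KO libraries, where all 3 numbers correlated best with their own in both directions. In the other comparisons with 3 or more pairs not every pair was over 0.1, with -0.142 to 0.046 between B-1a genotypes and -0.109 to 0.217 between B-1a and B-2 TET2-KO libraries. The tests take the numbers as unpaired, and the block changed no member's call in the interaction or between B-1a and B-1b cells.

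The higher lambda share of constant counts in B-1a than in B-2 TET2-KO libraries missed 0.05 when counts were divided by length (12.5 points) or by bases free of other genes (12.4, chosen after seeing the data), with the replicate block (13.4, where 4 pairs cannot give a p under 0.125), with Iglc1 alone (1.68) and without any 1 library (7.03 to 16.5 points). Between these groups the lambda V, Iglc2, Iglc3, Iglv1 and Iglv2 shares missed 0.05 with the replicate block too. Each had an exact permutation p of 0.125 (adjusted 0.143) there, and also missed 0.05 without any 1 library. With Iglc1 alone the lambda share turned to -0.49 points in B-2 cells and to -3.48 points between B-1a and B-1b cells. By all of Iglc1 to Iglc3, the latter difference ranged from -3.94 to 5.55 without 1 library.

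Other reversals were of values that had not passed. Without WT 1, which leaves 1 WT library, the B-2 shares turned to 2.78 (Iglc2), -6.39 (Iglv1) and 6.39 points (Iglv2). Over left-out libraries they ranged from -8.90 to 2.78, -6.39 to 23.6 and -23.6 to 6.39. The B-1b Iglc1 share turned to 0.0494 and 0.215 points per length and per free length (-2.12 to 0.584 without 1 library), and the B-1a lambda V share ranged from -3.91 to 14.1. Between B-1a and B-1b cells the replicate block gave 0.348 for the lambda V share (-17.6 to 0.348 without 1 library) and -1.23 for the Iglc3 share (-1.23 to 3.67). Log2 fold changes turned to 0.0406 (Iglc3, B-1b, without WT 1 and WT 2), -0.0387 (Iglv1, B-1b, replicate block), -0.43 and -0.24 (Igkc and Iglc3, interaction, without WT 1 and WT 2) and -0.11 (Iglv1, B-1a against B-2, replicate block). Without 1 library they ranged in B-1a cells from -0.0807 to 1.06 (Iglc2), -0.31 to 0.14 (Iglc3) and -0.22 to 2.01 (Iglv2), in B-1b cells from -0.21 to 0.43 (Iglc1), -0.13 to 0.48 (Iglc2), -0.51 to 0.20 (Iglc3) and -0.37 to 0.54 (Iglv1), and in B-2 cells from -0.15 to 0.0172 (Iglc3). In the interaction they ranged from -0.26 to 0.21 (Igkc), -0.32 to 0.95 (Iglc2), -0.24 to 0.45 (Iglc3) and -0.97 to 1.29 (Iglv2). For B-1a against B-2 cells they ranged from -0.16 to 0.0615 (Igkc) and -0.53 to 0.46 (Iglv1), for B-1b against B-2 from -0.22 to 0.17 (Igkc) and -0.12 to 0.52 (Iglc3), and for B-1a against B-1b from -0.22 to 0.23 (Igkc), -0.25 to 1.03 (Iglc2), -0.17 to 0.54 (Iglc3) and -1.08 to 1.19 (Iglv2).

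With 3 against 4 libraries the smallest exact p is 0.0571, and a count of 0 for Iglv3, Iglj2 and Iglj3 says nothing of their use.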
